A study of Mus musculus with 2 samples.

Results

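Messenger RNA of 8 genes of one signalling route was described in microglia, the resident macrophages of the brain: the receptor gene Trem2, the adaptor genes Tyrobp and Fcer1g, the Fc gamma receptor genes Fcgr1, Fcgr2b and Fcgr3, and the signalling enzyme genes Syk and Plcg2. They were taken by symbol, as 8 of 32245 gene symbols, and counted in every barcode with at least 1500 UMIs (unique molecular identifiers, 1 per captured RNA molecule), at least 200 genes and at most 10% of UMIs from mitochondrially coded genes. This left 10687 cells of a Control library and 8618 cells of an FGR library, FGR standing for fetal growth restriction. Both libraries came from hippocampal cells of mice at 3 weeks after birth, both carried the genotype Tmem119-tdTomato+/-, in which a red fluorescent reporter is tied to the microglial gene Tmem119, and both were made from a flow cytometry sort for Tmem119. The sources used here do not say how growth was restricted, nor how many animals of which sex entered each library. Each group is 1 library, so nothing could be tested between groups. Every interval below is at 95% and covers counting error only, and no difference could be set against the spread between animals.

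TREM2 is a surface receptor that binds lipids, lipoproteins and cell debris. It has no signalling tail of its own and relies on the adaptor TYROBP, also called DAP12, whose tail carries an immunoreceptor tyrosine-based activation motif (ITAM). The activating Fc gamma receptors, which bind the constant part of immunoglobulin G, use a second ITAM adaptor, the Fc receptor gamma chain encoded by Fcer1g. A phosphorylated ITAM recruits the kinase SYK, and phospholipase C gamma 2 acts after it to release calcium and activate protein kinase C. FCGR2B stands apart from the other receptors, since its own tail is inhibitory. In mouse brain these genes are known chiefly from microglia and other macrophages.

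The sequence just before annotated starts of these genes is shown first, since all 8 are read here in one cell type. PU.1, the transcription factor of the myeloid lineage, binds a core of GGAA within a purine-rich stretch. RefSeq promoter windows of assembly GRCm38.p6 (the bases just before each annotated start) were found for 7 of the 8 genes, all but Tyrobp, with 9 windows in all. The letters GAGGAAGT were searched on both strands and lay in none of these windows and in 2.44% of 32851 windows of all genes. The shorter GAGGAA, which is contained in GAGGAAGT, was also searched on both strands. It lay in 5 of the 9 windows, from 4 of the 7 genes, and in 23.3% of all windows. The 5 windows are not 5 separate sites. Both matching Fcgr3 windows hold the same match, 6 and 15 bases before their annotated starts. The stretch around each match is printed 5′ to 3′ along the gene's own strand, that of Fcgr3 once in its longer form. The match is in capitals, as GAGGAA or as its reverse complement TTCCTC. Each print runs to the annotated start except that of Fcgr1. There the match begins 55 bases before the start, and the print stops short of the start.
Trem2, chr17:48346321-48346400, plus strand: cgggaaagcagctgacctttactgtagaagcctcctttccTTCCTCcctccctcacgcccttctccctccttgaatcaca
Fcgr1, chr3:96293979-96294064, minus strand: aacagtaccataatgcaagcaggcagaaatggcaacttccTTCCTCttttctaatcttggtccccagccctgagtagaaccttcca
Fcgr3, chr1:171059395-171059449, minus strand: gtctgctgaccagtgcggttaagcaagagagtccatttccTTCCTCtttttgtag
Syk, chr13:52596833-52596881, plus strand: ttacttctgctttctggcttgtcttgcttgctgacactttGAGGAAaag
In the Trem2, Fcgr1 and Fcgr3 stretches the same 10 letters ttccTTCCTC were read. The Fcgr3 stretch lies within an intron of a longer Fcgr3 transcript, and the Syk stretch lies before an alternative start inside the Syk gene. A match describes the letters of the window and is not a measured binding site.

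The Control library held 53560293 UMIs in its cells, with a median of 4657 per cell, and the FGR library 45441515, with a median of 4919.5. Cells held 90.8% and 89.4% of all UMIs, and 31 cell barcodes occurred in both libraries. Levels are counts-per-million (CPM), the UMIs of a gene summed over a library's cells and divided by all UMIs of those cells. Markers matched the sort: the 12 microglial markers fixed for this purpose summed to 37256 CPM in Control cells and 36361 CPM in FGR cells. The 4 neutrophil markers, a cell type rich in Fc receptors, summed to 0.037 and 0.044 CPM, with 2 and 3 of them at 0. Those of border macrophages summed to 42.0 and 40.6 CPM (2 and 0 of 6 at 0) and those of monocytes to 9.60 and 6.91 CPM (2 of 4 at 0 in each). Summed astrocyte and vascular markers were higher in the FGR library (324.7 against 194.9 CPM, and 97.2 against 49.2 CPM), red blood cell genes were lower (34.0 against 121.6 CPM), and none of these 3 lists had a gene at 0. Markers of activated or axon-tract microglia (497.0 CPM in Control and 667.3 CPM in FGR cells) and of interferon-responsive cells (30.9 and 45.9 CPM) were also higher in the FGR library, with no gene at 0. The part of these lists in the differences below was not tested.

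Trem2 and both ITAM adaptors stood slightly higher in the FGR library, with ratios of 1.06 to 1.11. Trem2 (ENSMUSG00000023992, GRCm38 chromosome 17, 48346401 to 48354147, plus strand) was at 1686 CPM in Control cells and 1822 CPM in FGR cells, from 90309 and 82800 UMIs. The ratio of FGR over Control was 1.08 (1.07 to 1.09). Tyrobp (ENSMUSG00000030579, chromosome 7, 30413760 to 30417585, plus strand), which encodes the partner that carries the signal of TREM2 inward, was at 1751 and 1860 CPM. Its ratio was 1.06 (1.05 to 1.07). Fcer1g (ENSMUSG00000058715, chromosome 1, 171229572 to 171234365, minus strand), the common gamma chain of the activating Fc receptors, was at 1558 and 1732 CPM, a ratio of 1.11 (1.1 to 1.12). The 3 ratios were close to each other, and each exceeded its counting error by far, since each level rests on at least 78725 UMIs.

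The 3 Fc gamma receptor genes did not move together. Fcgr3 (ENSMUSG00000059498, chromosome 1, 171051174 to 171064935, minus strand), which encodes the activating low-affinity receptor, was at 593.7 CPM in Control cells and 734.8 CPM in FGR cells. Its ratio of 1.24 (1.22 to 1.26) was the largest of the 8 genes. Fcgr2b (ENSMUSG00000026656, chromosome 1, 170958617 to 170976547, minus strand), the inhibitory receptor, was at 174.6 and 194.8 CPM, a ratio of 1.12 (1.08 to 1.15). Fcgr1 (ENSMUSG00000015947, chromosome 3, 96282909 to 96293969, minus strand), the high-affinity activating receptor, went the other way, with 302.6 CPM in Control cells and 278.9 CPM in FGR cells. Its ratio was 0.922 (0.901 to 0.943). Fcgr2b and Fcgr3 are related in sequence and share 233 stretches of 31 bases in their coding transcripts. The last 500 bases of their transcripts, where 3′ libraries are read, had no such stretch in common with each other. Whether any of the 233 lies in the last 500 bases of either gene alone was not checked. Fcgr2b overlaps the model gene Gm38204 on the opposite strand, and Fcgr3 overlaps the microRNA gene Mir6546. The sources used here do not say whether counting used strand.

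The genes of the 2 signalling enzymes differed by less than counting error between the libraries when scaled by total UMIs. Syk (ENSMUSG00000021457, chromosome 13, 52583173 to 52648792, plus strand), the kinase recruited to phosphorylated ITAMs, was at 122.2 CPM in Control cells and 124.2 CPM in FGR cells. Its ratio was 1.02, with an interval of 0.981 to 1.05 that holds 1, but with scaling by the median of ratios it was 1.06 (1.02 to 1.1). Plcg2 (ENSMUSG00000034330, chromosome 8, 117498291 to 117635142, plus strand), the phospholipase after SYK, was at 74.3 and 72.4 CPM. Its ratio was 0.974 (0.930 to 1.02). Plcg2 overlaps the model gene Gm27361 on the opposite strand.

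**Figure D1:**
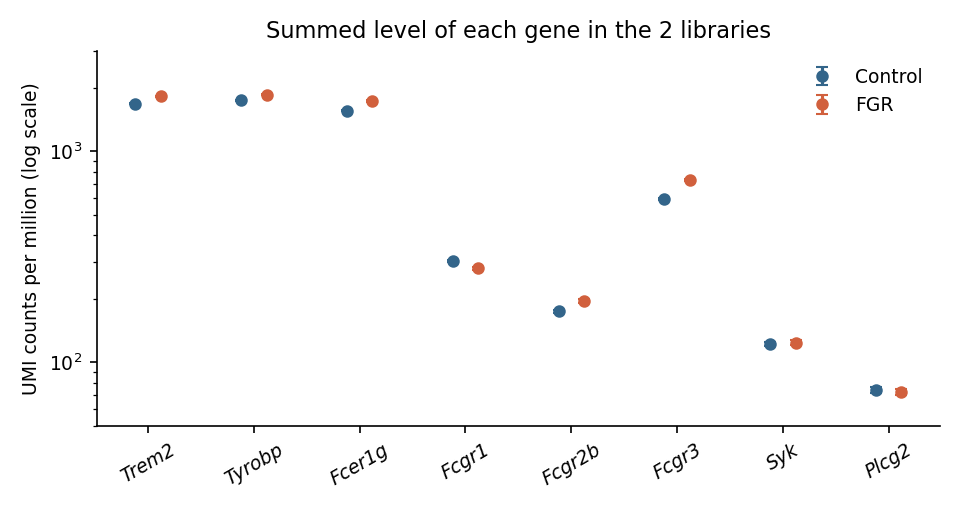
Levels of the 8 genes in CPM (log axis) in the Control and the FGR library, with exact Poisson 95% intervals that are mostly smaller than the points. Fcgr3 shows the widest gap, 593.7 against 734.8 CPM, and Fcgr1 is the gene whose FGR point lies visibly under the Control point.

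The shifts were read against all 3512 genes that reached 50 CPM in at least 1 library, a minimum that all 8 genes passed. None of the 8 had a ratio whose interval lay wholly beyond 1.5-fold in either direction, against 3.64% of all genes. One of the 8, Fcgr3, had an interval wholly above 1.2, against 5.52% of all genes, though not without cluster 0, described below (1.2, 1.18 to 1.23), or with cells thinned to 1500 UMIs (1.23, 1.2 to 1.27), and none had one wholly below 1/1.2, against 7.92%. The median log2 ratio of the 8 genes was 0.10 (range -0.12 to 0.31), beside -0.07 over all genes, with quartiles of -0.18 and 0.04. Intervals wholly above 1 were found for 5 of the 8 genes and for 22.98% of all genes, and wholly below 1 for 1 of the 8 and 52.96% of all genes. With scaling by the median of ratios the latter shares became 35.94% each, and beyond 1.2-fold 6.66% of all genes were higher and 4.95% lower, while Fcgr1 stayed below 1 (0.962), Plcg2 moved to 1.02, with 1 inside its interval, and Syk moved to 1.06 (1.02 to 1.1), an interval wholly above 1. Among the ratios of all genes Fcgr3 stood at percentile 94.3, Fcgr2b at 88.3, Fcer1g at 87.8, Trem2 at 83.8 and Tyrobp at 81.3. Syk and Plcg2 stood at 71.5 and 57.6. Fcgr1, at percentile 36.8, lay between the lower quartile and the median of all genes, so its lower level was no larger a shift than that of many genes. The shares of all genes given above were not matched for level, and intervals narrow with more UMIs. At a minimum of 200 CPM, reached by 5 of the 8 genes, 33.5% of genes had intervals wholly above 1 and 55.16% wholly below. Beyond 1.2-fold 10.96% were higher and 12.23% lower, and beyond 1.5-fold 5.35% and 2.04%.

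**Figure D2:**
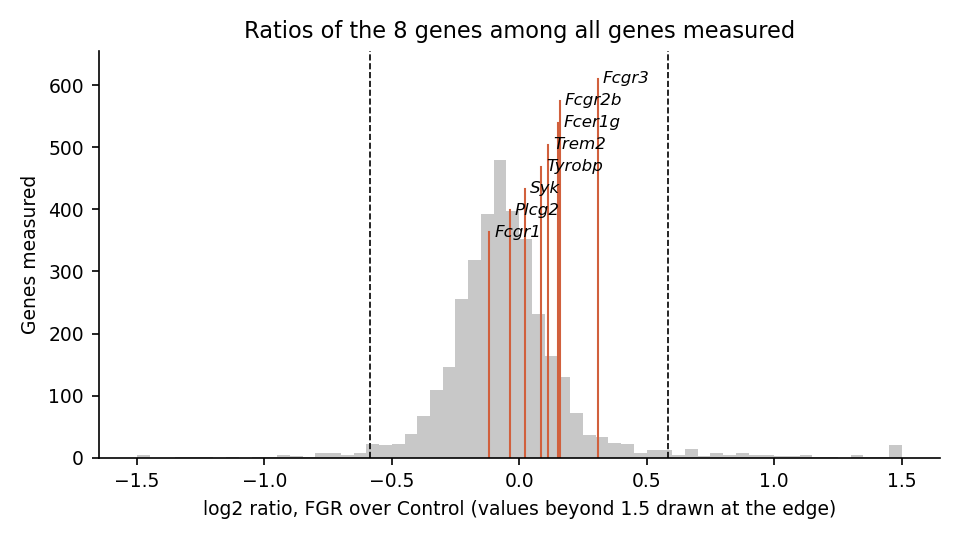
Log2 ratios (FGR over Control) of the 3512 genes measured, as a histogram with the few beyond plus or minus 1.5 placed in the end bins, and the 8 genes marked. Dashed lines mark 1.5-fold, and all 8 genes lie between them, 6 to the right of 0 and 2 (Fcgr1 and Plcg2) to the left.

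The make-up of the Fc gamma receptor transcripts differed between the libraries, with more of Fcgr3 and less of Fcgr1 in the FGR cells. Of the 57790 Control and 55347 FGR UMIs of Fcgr1, Fcgr2b, Fcgr3 and Fcgr4, Fcgr3 held 55.0% (54.6 to 55.4, exact binomial) in Control cells and 60.3% (59.9 to 60.7) in FGR cells. Fcgr1 held 28.0% (27.7 to 28.4) and 22.9% (22.5 to 23.2). The inhibitory Fcgr2b kept its share, 16.2% (15.9 to 16.5) and 16.0% (15.7 to 16.3), and Fcgr4, an activating receptor better known from monocytes and neutrophils, held 0.756% and 0.777%. A share of this kind does not depend on how the libraries are scaled. These are shares of UMIs, not corrected for how well each transcript is captured. The Fcgr1 share was lower and the Fcgr3 share higher in the FGR library in each of the 6 cell clusters described below. The smallest gap for Fcgr1 was in cluster 4, 23.8% against 20.2%, and the smallest for Fcgr3 in cluster 5, 64.8% against 67.7%. In cluster 5 the intervals of both shares overlapped between the libraries, and in clusters 0 to 4 none did.

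Per cell, 3 of the genes had a UMI in nearly all cells and the others in part of them. To compare cells of unlike depth each was thinned at random to 1500 UMIs. At that depth Trem2 had at least 1 UMI in 89.8% of Control and 91.4% of FGR cells, Tyrobp in 90.4% and 91.0%, and Fcer1g in 88.9% and 90.3%. Without thinning these shares were 98.8 to 99.2% in both libraries. In the 20 Control and 47 FGR cells with few microglial marker UMIs described below, the thinned shares were 10% and 10.6% for Trem2, 0% and 8.51% for Tyrobp and 5% and 6.38% for Fcer1g, at median depths of 4631 and 5328 UMIs. The receptor genes were caught less often. Fcgr3 was seen in 57.7% (56.7 to 58.6) of Control cells and 65.4% (64.3 to 66.4) of FGR cells, and in 90.3% and 93.5% unthinned. Fcgr1 was seen in 36.3% (35.4 to 37.3) and 33.2% (32.2 to 34.2), and in 73.3% and 71.7% unthinned. Fcgr2b was seen in 22.3% (21.5 to 23.1) and 24.3% (23.4 to 25.2), and in 52.0% and 56.7% unthinned. Each of these 3 shares moved in the same direction as the summed level. Syk was seen in 16.9% and 17.3% of cells (43.4% and 44.6% unthinned) and Plcg2 in 10.3% and 10.2% (29.8% and 29.6% unthinned). At so few counts per cell, a cell without a UMI is not shown to lack the transcript.

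In a typical cell at full depth the median was 8 UMIs of Trem2 in Control cells and 9 in FGR cells, 8 and 9 of Tyrobp, 7 and 8 of Fcer1g, 3 and 3 of Fcgr3, 1 and 1 of Fcgr1 and Fcgr2b, and 0 and 0 of Syk and Plcg2. For Fcgr3 the quartiles differed where the median did not, at 1 and 4 in Control cells and 2 and 5 in FGR cells. After thinning, the variance over the mean (Fano factor, 1 for random sampling alone) was highest for Trem2 (1.25 and 1.29), Tyrobp (1.24 and 1.36) and Fcer1g (1.17 and 1.2). The other 5 genes lay between 1.01 and 1.12. The median of all genes was 1.04 and 1.05 and the 90th percentile 1.16 and 1.18. That background was not matched for level, and Trem2, Tyrobp and Fcer1g had thinned means of 2.37 to 2.80 UMIs per cell. Across cells within a library the correlations of the 28 gene pairs in log-normalised counts were mostly low. The median Pearson r was 0.017 in Control cells and 0.033 in FGR cells. The highest were Tyrobp with Fcer1g (0.257 and 0.363), Trem2 with Tyrobp (0.234 and 0.278) and Trem2 with Fcer1g (0.177 and 0.234). These points share a library and differ in depth, and after thinning no pair exceeded 0.111 and 0.143. Low counts per cell hold r near 0 by themselves, and thinning lowers the counts further. These values thus do not show how far the transcripts vary together between cells.

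Cells were then grouped by clustering on other genes, with the 8 genes and the related pathway genes left out and each library centred on its own mean, so that levels could be compared between kinds of cell. Of 8 clusters, 6 held at least 50 cells in each library. Clusters 0 (led by Sertad1 and Klf2), 1 (led by Hes1) and 2 (led by the chemokine genes Ccl4 and Ccl3) were microglia-like by the fixed markers and held 4464, 2887 and 1789 Control cells and 2491, 2181 and 2208 FGR cells. Cluster 3, led by Hes1, Bc1 and Slc1a2, had all 12 microglial markers but is left unnamed because Slc1a2 is an astrocyte marker (913 and 1003 cells). Cluster 4, led by Lgals3, Csf1, Spp1 and Lpl, was activated or axon-tract microglia-like (552 and 567 cells). Cluster 5, with Ptn, Apod and Flt1 among its leading genes, mixed genes of several other cell types and is unnamed (55 and 156 cells). The mitotic cluster 6 (16 and 10 cells) and cluster 7 (11 and 2 cells) were too small for levels.

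Trem2 and Tyrobp were highest in cluster 4, whereas Fcgr1, Fcgr2b, Syk and Plcg2 were lowest there among clusters 0 to 4. Trem2 in cluster 4 was at 2035 CPM in Control cells and 2060 CPM in FGR cells, above cluster 1 (1791 and 2040), cluster 2 (1730 and 1779), cluster 0 (1596 and 1778) and cluster 3 (1519 and 1623). Only the gap between clusters 4 and 1 and that between clusters 2 and 0 were within counting error, and only in the FGR library. Tyrobp in cluster 4 was at 2082 and 2304 CPM, followed by cluster 1 (1975 and 2106), and was lowest in cluster 0 (1571 and 1588). Fcer1g did not follow them: it was highest in cluster 1 (1687 and 1915 CPM), and cluster 4 came after clusters 1 and 2 in the Control library (1553 CPM) and after cluster 1 in the FGR library (1832 CPM).

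Among clusters 0 to 4, Fcgr1 was lowest in cluster 4, at 233.9 CPM in Control cells and 212.6 CPM in FGR cells, against 281.0 to 314.5 and 260.4 to 322.1 CPM in the other 4. Fcgr2b was lowest there too, at 138.9 and 140.9 CPM against 159.9 to 184.0 and 187.4 to 214.7 CPM. In Control cells its intervals in clusters 4 and 3 overlapped. Syk was at 87.3 and 88.3 CPM in cluster 4 and at 118.0 to 135.3 CPM in clusters 0 to 3 of both libraries, where neighbours in the order 0, 2, 1 and 3 overlapped in their intervals. Plcg2 was at 63.3 and 64.5 CPM in cluster 4 and at 70.6 to 77.7 CPM in clusters 0 to 3, with intervals that overlapped in part. Fcgr3 was an exception only in Control cells, where cluster 4 (591.0 CPM) came after clusters 2 and 1. Its interval there overlapped those of clusters 1 and 0. In FGR cells cluster 4 (682.8 CPM) was last of these 5, with an interval that overlapped that of cluster 3. Cluster 2, led by the chemokine genes, held the most Fcgr3 in both libraries (658.5 and 764.2 CPM), though in FGR cells clusters 0 (759.7 CPM) and 1 (753.2 CPM) were close to it.

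Within clusters 0 to 4 the ratios of Trem2, Tyrobp, Fcer1g, Fcgr2b, Fcgr3 and Syk lay above 1 throughout and varied in size, whereas those of Fcgr1 and Plcg2 lay on both sides of 1. The Fcgr3 ratio was 1.31 in cluster 0, 1.27 in cluster 1, 1.26 in cluster 3, 1.16 in clusters 2 and 4, and its interval lay above 1 in these 5. In cluster 5 the ratio was 0.903 (0.664 to 1.24). Fcer1g was higher in the FGR library in clusters 0 to 4, with ratios from 1.06 in cluster 2 to 1.18 in cluster 4. Trem2 had its largest ratios in clusters 0 (1.11) and 1 (1.14), while in cluster 4, where its level was highest, the ratio was 1.01 (0.981 to 1.05), and in cluster 5 it was 0.766 (0.657 to 0.894). Tyrobp was the reverse in its extremes, with 1.11 in cluster 4 and 1.01 (0.993 to 1.03) in cluster 0. Fcgr2b had its largest ratio in cluster 1 (1.24) and was level in cluster 4 (1.01, 0.897 to 1.15). Among clusters 0 to 4 Fcgr1 was furthest below 1 in cluster 2, at 0.856 (0.815 to 0.899), and in cluster 1 its ratio was 1.03 (0.987 to 1.08). For Syk and Plcg2 all 6 intervals held 1. Whether the ratios differ between clusters could not be tested with 1 library per group.

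**Figure D3:**
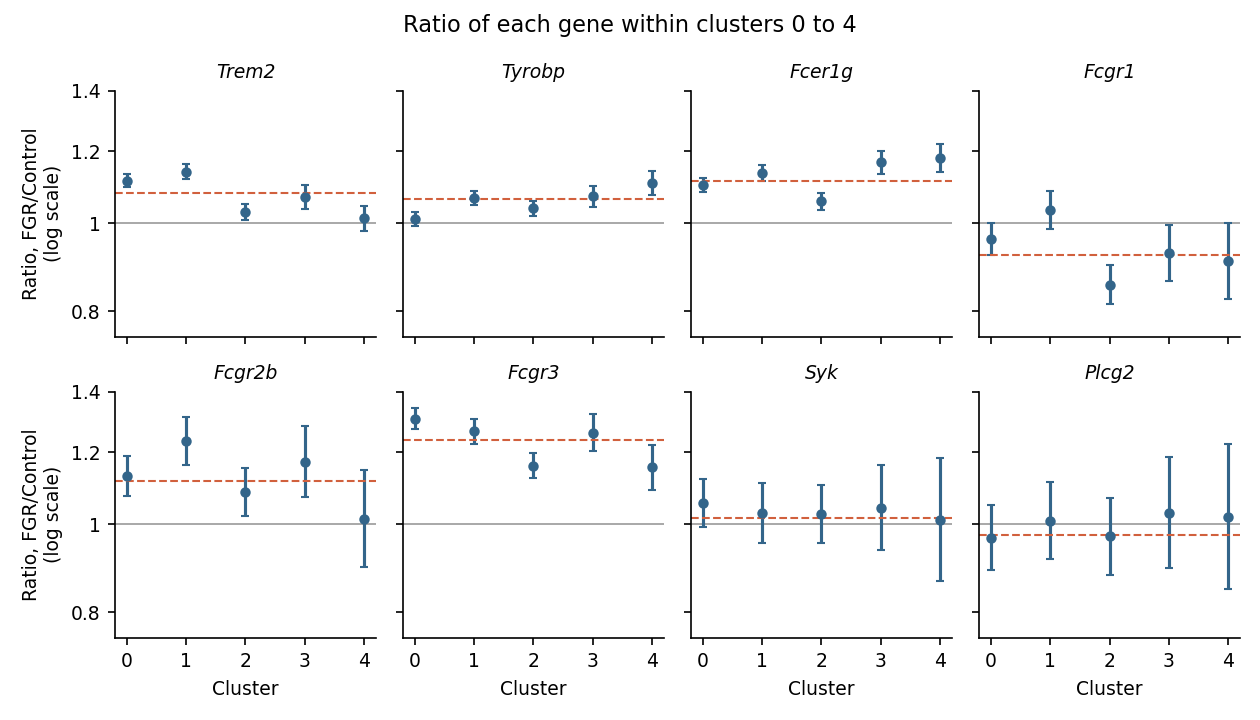
Ratio of FGR over Control (log axis) for each of the 8 genes within clusters 0 to 4, with exact 95% counting intervals and a dashed line at the ratio over all cells. Fcgr3 and Fcer1g lie above 1 in clusters 0 to 4, Fcgr1 is lowest in cluster 2 (0.856), and every interval of Syk and Plcg2 holds 1.

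Cluster 5 held cells with few microglial marker UMIs, in which these transcripts were low. Split at 0.2% of UMIs from the 12 microglial markers, a value chosen after the data were seen, it held 20 Control and 47 FGR cells under and 35 and 109 cells over that share. Near that value, between 0.1% and 0.4%, lay 4 and 14 of the cells under it and 0 and 6 of those over it. In the cells under the share, Trem2 was at 43.4 CPM in Control cells and 37.9 CPM in FGR cells (5 and 13 UMIs), Tyrobp at 17.4 and 26.2 CPM, and Fcer1g at 8.68 and 23.3 CPM. The 5 other genes had no UMI in the Control cells and between 2.91 and 8.74 CPM in the FGR cells. In those Control cells 3 counts would give 26.0 CPM, and the exact upper limit for a count of 0 is 32.0 CPM. Thinned to 1500 UMIs, 10% of these Control cells and 10.6% of the FGR cells had a UMI of Trem2, at median depths of 4631 and 5328 UMIs, against 89.8% and 91.4% of all cells, at median depths of 4657 and 4919.5 UMIs. Free RNA, read from barcodes of 10 to 100 UMIs, held Trem2 at 1384 and 1656 CPM. With free RNA at an estimated 3.31% and 2.47% of cell UMIs (scaled by the red blood cell genes), it would bring 45.8 and 41.0 CPM of Trem2, 39.8 and 40.4 CPM of Tyrobp and 45.9 and 42.6 CPM of Fcer1g into any cell. The levels of these 3 genes in the low-marker cells lay under those values, but their intervals held them. For Trem2 the intervals were 14.1 to 101.3 CPM in Control cells and 20.2 to 64.7 CPM in FGR cells. These cells were chosen for few microglial marker UMIs, and whether their counts come from free RNA or from expression was not tested.

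The cells of cluster 5 over that share carried a different mix of these transcripts from clusters 0 to 4. Tyrobp was at 3604 CPM (3271 to 3962) in Control cells and 3878 CPM (3665 to 4100) in FGR cells, against 1752 and 1860 CPM in clusters 0 to 4. Fcer1g was also higher, at 2678 CPM (2392 to 2989) and 2630 CPM (2455 to 2814) against 1560 and 1740 CPM. Fcgr1, Fcgr2b and Syk were lower in both libraries. Fcgr1 was at 168.4 CPM (102.9 to 260.1) and 118.8 CPM (84.1 to 163.1) against 303.5 and 282.1 CPM, and Syk at 33.7 CPM (9.18 to 86.2) and 37.5 CPM (19.4 to 65.6) against 122.6 and 125.8 CPM. Fcgr2b was at 84.2 CPM (40.4 to 154.9) and 90.7 CPM (60.7 to 130.3) against 174.8 and 197.1 CPM. Fcgr3 was lower beyond counting error only in FGR cells, at 462.9 CPM (391.3 to 543.7) against 742.7 CPM, since its 496.8 CPM (378.2 to 640.9) in Control cells rest on 59 UMIs and the interval holds the 595.7 CPM of clusters 0 to 4. Trem2 was at 2038 and 1636 CPM, against 1690 and 1837 CPM, so it did not go the same way in the 2 libraries. These cells were shallow, with medians of 3054 and 2330 UMIs against 4662 and 4936, and had more mitochondrially coded UMIs (medians of 5.99% and 5.68% against 1.94% and 1.93%). The part of depth and RNA quality in this mix was not tested.

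**Figure D4:**
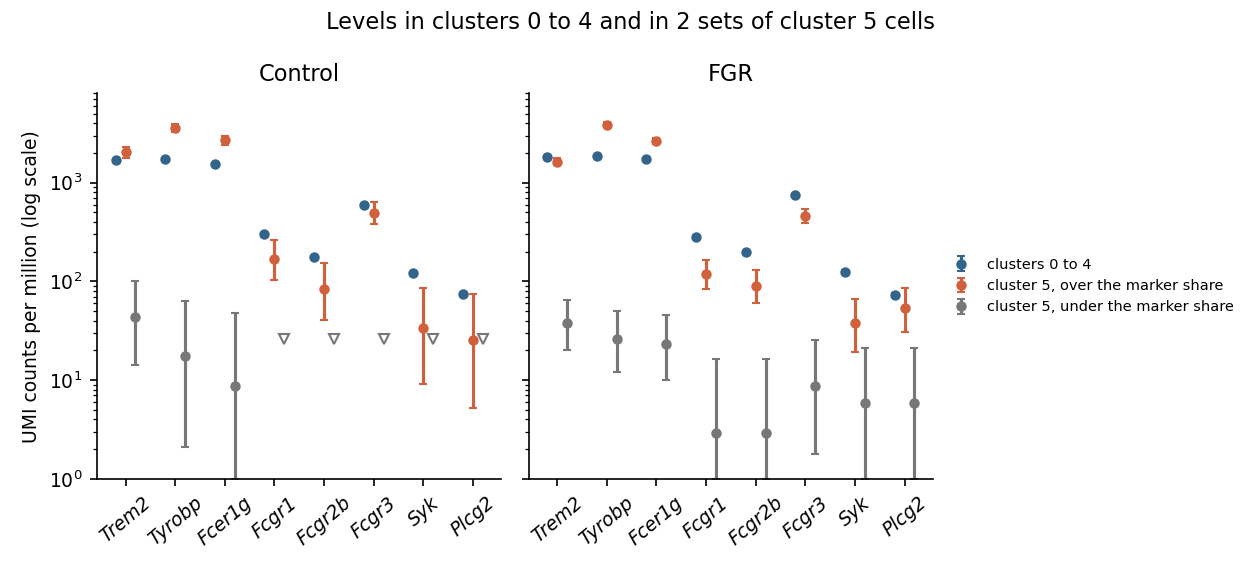
Levels of the 8 genes in CPM (log axis) in cluster 5 under and over 0.2% of microglial marker UMIs and in clusters 0 to 4, per library, with exact Poisson 95% intervals whose lower ends stop at the axis. Open triangles mark genes with 0 UMIs, at the level 3 counts would give, and in the cells over the share Tyrobp and Fcer1g lie above their level in clusters 0 to 4 while Syk lies below it.

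Immediate-early genes, which respond fast to stimuli and to tissue dissociation, were unequal between the libraries, so the 8 genes were compared within strata of them. All cells, thinned to 1500 UMIs, were split at the pooled quartiles of the summed UMIs of 26 such genes. The highest stratum (74 to 221 such UMIs) held 14.3% of Control and 36.4% of FGR cells, and the lowest (0 to 33) held 30.9% and 18.9%. Tyrobp, Trem2 and Fcer1g were all lower in cells with many early transcripts. From the lowest to the highest stratum Tyrobp went from 1942 to 1477 CPM in Control cells and from 2155 to 1625 CPM in FGR cells, ratios of 0.760 and 0.754. The ratios were 0.857 and 0.896 for Trem2 and 0.845 and 0.864 for Fcer1g, where the median of all genes was 0.980 and 0.967 and the summed microglial markers gave 0.889 and 0.926. The early genes themselves take up part of the total in such cells, 5.85% of UMIs in the highest stratum against 1.47% in the lowest in the Control library, and 6.80% against 1.4% in the FGR library. The highest stratum was thus not matched between the libraries.

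Compared in this way, the FGR library stood higher for Trem2 in each of the 4 strata, with ratios of 1.09, 1.13, 1.13 and 1.14 from the lowest to the highest. The same held for Tyrobp (1.11, 1.13, 1.15 and 1.1), Fcer1g (1.12, 1.1, 1.16 and 1.15) and Fcgr3 (1.14, 1.29, 1.22 and 1.34). Over all cells thinned in the same way the ratios were 1.095 for Trem2 and 1.07 for Tyrobp. Fcgr3 did not follow the adaptors across the strata. It went from 612.0 CPM in the lowest to 554.0 CPM in the highest in the Control library, and from 697.8 to 740.1 CPM in the FGR library. Fcgr1 had ratios of 0.963, 0.871, 0.903 and 0.938, and its interval lay below 1 in the second and the third. Fcgr2b had 1.2 in the lowest stratum, and in the other 3 its interval held 1. Every interval of Plcg2 held 1, as did those of Syk except in the highest stratum (1.17, 1.01 to 1.35).

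**Figure D5:**
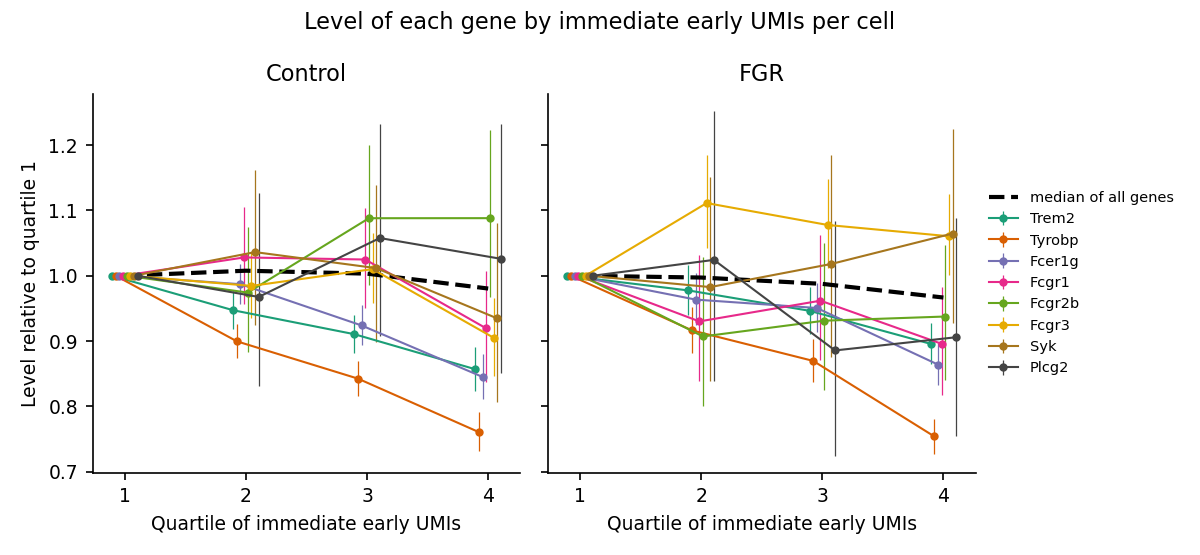
Level of each gene within strata of immediate-early gene content, relative to the lowest stratum of the same library, with exact 95% counting intervals and the median of all genes as a dashed line. Tyrobp, Trem2 and Fcer1g descend in both libraries, to 0.760 and 0.754 for Tyrobp, whereas Fcgr3 ends at 0.905 in Control cells and 1.06 in FGR cells.

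The rest of the route was described with 6 lists of 113 genes, of which 57 reached 50 CPM. None had an interval wholly beyond 1.5-fold, and beyond 1.2-fold 3 were higher and 3 lower, counts to be read beside the 5.52% and 7.92% of all genes, with a median log2 ratio of -0.07, the same as over all genes. Of 9 measured partners, ligands and cleavage genes of Trem2, 1 was higher beyond 1.2-fold and none lower (median log2 ratio 0.05). It was Ms4a6c, a membrane gene of a family whose human locus is linked to soluble TREM2, at 49.7 CPM in Control cells and 63.2 CPM in FGR cells (1.27). Cd33, an inhibitory sialic acid receptor, was at 450.6 and 378.8 CPM (0.841), Ms4a6b, of the same family as Ms4a6c, at 109.3 and 120.2 CPM (1.1), and Apoe, a TREM2-binding lipoprotein named after its value was seen, at 1467 and 1547 CPM (1.05). Of the other receptors that pair with the adaptors only Clec5a (63.3 and 69.1 CPM) and Siglech (1237 and 1162 CPM) were measured, of 19 listed. Of 2 measured among 12 other Fc receptor genes, Fcgrt, the neonatal Fc receptor that recycles immunoglobulin G, was lower (108.4 and 85.5 CPM, 0.789), and Fcrls, a microglial Fc receptor-like gene, was level (1781 and 1765 CPM).

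Among the 21 measured kinases and adaptors of ITAM signalling, 2 were higher beyond 1.2-fold and 1 lower, with a median log2 ratio of -0.13. Pik3r1, a regulatory subunit of phosphoinositide 3-kinase, was at 430.3 CPM in Control cells and 646.6 CPM in FGR cells, a ratio of 1.5 (1.48 to 1.53). Lat2, a membrane scaffold phosphorylated after SYK, was at 55.5 and 81.9 CPM (1.48, 1.41 to 1.55). Sh3bp2, an adaptor that binds SYK, was at 52.1 and 39.0 CPM (0.749), and the kinase subunit Pik3ca at 65.8 and 52.9 CPM (0.804). Of 9 measured inhibitory receptors and phosphatases 1 was lower, Dok1, an adaptor that dampens tyrosine kinases, at 72.5 and 47.9 CPM (0.661, 0.627 to 0.697). In the same list the tyrosine phosphatase Ptprc was at 294.3 and 346.0 CPM (1.18), the inhibitory sialic acid receptor Siglece at 52.9 and 59.9 CPM (1.13) and the inhibitory receptor Sirpa at 1026 and 908.9 CPM (0.886). None of the 14 measured calcium and protein kinase C genes passed 1.2-fold in either direction (median log2 ratio -0.07). Prkcd, a protein kinase C isoform, was at 205.1 and 236.6 CPM (1.15) and the calcium channel gene Orai1 at 174.6 and 152.6 CPM (0.874).

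Genes with the pattern most like that of each of the 8 were sought over the 6 clusters of both libraries, 12 points, by Pearson r of log2 levels centred within a library, among 3171 genes. Over these points Trem2 was most like Hexa (0.995), a lysosomal hexosaminidase subunit, Syk most like Ncf1 (0.999), a subunit of the phagocyte oxidase, and Plcg2 most like Ubash3b (0.997), a phosphatase that acts on SYK. These values rest on cluster 5, where most microglial genes are low. Over clusters 0 to 4 alone (10 points) the first for Trem2 was Gfpt1 (0.971), with Hexa next (0.970), for Tyrobp Selenof (0.978), for Fcer1g Cnpy2 (0.957), for Fcgr1 Frmd4b (0.991), for Fcgr2b Git2 (0.993), for Fcgr3 Ctsh (0.964), for Syk Mapk14 (0.996) and for Plcg2 Rnf13 (0.987). Over the same 10 points, which are clusters 0 to 4 in each library, the 8 genes did not all move alike. Trem2 and Tyrobp had an r of 0.735 and Tyrobp and Fcer1g 0.764, Fcgr1 had 0.963 with Fcgr2b and 0.956 with Plcg2, and Syk had 0.944 with Fcgr2b, whereas Tyrobp and Syk had -0.793. Some other pairs were weaker: the highest r of Fcgr3 was 0.588, with Fcgr2b, and Fcer1g had 0.063 with Fcgr1 and -0.090 with Fcgr2b. Among these clusters, cluster 4 held the least Fcgr1, Fcgr2b, Syk and Plcg2 and the most Trem2 and Tyrobp. The part of cluster 4 in these r values was not tested. The genes of like pattern were picked as the highest of 3171, so their r values are high in part by selection.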

How the data were processed

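One Control and 1 FGR 10x Genomics single-cell 3′ library were used, grouped by sample title. The authors deposited raw UMI counts per gene and barcode, unfiltered, and per the file headers the matrices come from Cell Ranger 4. The submitters' processing notes name Cell Ranger 3.0, Seurat 5.0 and mm10. The matrices held 1961707 and 1935841 barcodes, and 10706 and 8647 reached 1500 UMIs. Of these, 3 and 2 were removed for few genes and 16 and 27 for mitochondrial UMIs. Counts were summed to CPM, with exact Poisson, conditional and Clopper-Pearson intervals (scipy 1.17.1). No doublet caller was run. Clustering used scanpy 1.11.5 and leidenalg 0.10.2 (2000 variable genes, 30 components, 15 neighbours, resolution 0.5). Coordinates are from GENCODE M21 (GRCm38, the same assembly as mm10). The genes and lists were chosen with earlier results of these data known. Besides the 8 genes, the text names up to 4 measured genes per list, in order of the size of the log2 ratio (1 is not reported here), and genes of like pattern; Apoe and cluster leaders are named as description. Alternatives, 13 planned and 6 added after seeing the data, are in the closing section. All computations were also tested on simulated data.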

Additional observations from a re-analysis of the deposited data

How the results depend on the processing

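Across 13 planned and 6 added alternatives none of the 8 genes passed 1.5-fold. The 2 other CPM minimums leave ratios as they are by construction. No ratio whose interval excludes 1 changed side, but with median-of-ratios scaling Plcg2 crossed 1 (0.974 to 1.02, with 1 inside both intervals) and the interval of Syk came to lie above 1 (1.06, 1.02 to 1.1). Ratios ranged from 1.05 to 1.13 for Trem2 and for Tyrobp, 1.1 to 1.16 for Fcer1g, 0.893 to 0.962 for Fcgr1, 1.08 to 1.16 for Fcgr2b, 1.2 to 1.29 for Fcgr3, 1.01 to 1.06 for Syk and 0.967 to 1.02 for Plcg2. Fcgr3 no longer passed 1.2-fold, leaving 0 of the 8 genes, when cells were thinned to 1500 UMIs (1.23, 1.2 to 1.27) and without cluster 0 (1.2, 1.18 to 1.23). In the first case fewer counts widen the interval, and in the second the cluster with the largest Fcgr3 ratio (1.31) is left out. Why the ratio is largest in that cluster was not tested. The median log2 ratio of the 8 genes rose to 0.16 with median-of-ratios scaling, which moved that of all genes from -0.07 to -0.004, and to 0.15 with early gene strata weighted equally. Pathway genes past 1.5-fold numbered 1 with median-of-ratios scaling and 1 without cluster 0, Pik3r1 each time. A minimum of 200 CPM left 5 of the 8 genes measured. The median log2 ratio within clusters was 0.07 and stayed between 0.07 and 0.09 under 4 other clusterings. No paired analysis was possible because each group is 1 library. With 1 library per group, depth limits only counting error, and neither spread between animals nor a difference in handling can be told apart from FGR.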
